A study of Mus musculus with 12 samples.

Results

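The genes described here encode integrin subunits, among them *Itgae*, the gene for CD103. They were the rows of the count table whose symbol was *Itgae*, *Itgb7*, *Itga4*, *Itgb1*, *Itgal*, *Itgb2*, *Itga6*, *Itgav*, *Itgb3* or *Itgb8*, and all 10 were found among the 49585 genes of the table. RNA was sequenced from lymph node (LN) T cells of wild-type C57BL/6 (B6) mice and of CD8 Dual mice, labelled 8in4, in 4 groups with 3 samples each. The B6 groups were CD4+ and CD8+ T cells from mice with unmodified co-receptor loci. Both *Cd4* alleles of the homozygous CD8 Dual mice carry sequences for CD8α.1 and CD8β that replace CD4, and the unmodified *Cd8* locus supplies CD8α.2. Their T cells were sorted as CD8.1 cells, which carry the co-receptor from the *Cd4* locus, and CD8.2 cells, which carry the one from the *Cd8* locus. All mice were male and 6 to 10 weeks old, and all cells were sorted as CD62L+ and positive for TCRβ (antibody H57), with RNA prepared from pooled sorted cells. The study's methods add a CD44- gate that the sample labels do not name. They also state that both sexes were used in the study, without naming the sex of the mice for RNA sequencing. Total counts ranged from 18667474 to 37110502 per sample. CD8.2 replicate 3 stood apart as the deepest sample, with the lowest TMM factor (0.924) and *Gm42418* as its most abundant gene (3.14% of counts, *Eef1a1* in the other 11). It had a chi-square per gene of 80.6 and 53.5 against the other CD8.2 samples, where pairs of replicates without it had at most 30.8. B6 CD4+ replicate 1 had the most genes detected (18178) and held all 74 *Spp1* and 33 *Fermt2* counts of its group, 29 of 33 for *Jam2* and 133 of 157 for *Fn1*, genes of non-lymphoid cells. Levels are given in CPM, counts scaled to a common library size. At these depths 3 counts, used as the floor of detection, corresponded to 0.0875 to 0.167 CPM.

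Integrins are heterodimers of an α and a β subunit that bind ligands on other cells or in the matrix, and a β subunit can be shared by several α subunits. The αE subunit (CD103) pairs with β7 and binds E-cadherin on epithelial cells, and it is found on naive CD8+ T cells and on a fraction of regulatory T cells. The α4 subunit pairs with β7 for homing to gut or with β1 for binding VCAM-1, αL pairs with β2 as LFA-1, and αv with β8 activates latent TGF-β, a cytokine that induces *Itgae*.

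The 3 helper lineage markers (*Cd4*, *Zbtb7b* and *Cd40lg*) summed to 1239 CPM in CD4+ and 2.05 in CD8+ cells of B6 mice, and 293 in CD8.1 and 4.75 in CD8.2 cells. Most of the lower sum in CD8.1 cells was *Cd4* itself, whose locus was altered (mean of 969 CPM in B6 CD4+ and 49.7 in CD8.1 cells), whereas *Zbtb7b* had means of 159 and 154 CPM and *Cd40lg* 111 and 89.0 CPM. The 3 cytotoxic lineage markers (*Cd8a*, *Cd8b1* and *Runx3*) summed to 3759 CPM in B6 CD8+ cells and 3536 in CD8.2 cells, against 91.3 in B6 CD4+ and 433 in CD8.1 cells. The higher sum in CD8.1 than in B6 CD4+ cells was *Cd8a* (means of 192 and 1.17 CPM) and *Cd8b1* (193 and 33.2 CPM), whose coding sequences the altered *Cd4* locus carries, whereas *Runx3* had means of 47.5 and 57.0 CPM. The 9 general T cell markers summed to between 5642 and 6372 CPM in the 4 groups.

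Among the genes with a mean above 1 CPM in each group, *Itgae* and *Itgb3* differed most between the B6 lineages, in opposite directions, and *Itgb7*, the partner of *Itgae*, was at a like level in all 4 groups. *Itgae* was high in B6 CD8+ cells, intermediate in CD8.2 cells, lower in CD8.1 cells and lowest in B6 CD4+ cells. *Itgb3* and *Itga6* were higher in helper-lineage cells of both strains. *Itgb1* was low in B6 CD4+ cells and higher in the other 3 groups, and *Itgb8* was found above the floor in CD8.1 cells and, at a low level, in B6 CD4+ cells.

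*Itgae* lies on chromosome 11 at 73090583 to 73147446 on the plus strand (GRCm38, the assembly also called mm10), with 31 exons that encode 1167 amino acids. Its level was 2.91, 5.09 and 5.87 CPM in the 3 B6 CD4+ samples and 234, 240 and 264 CPM in the 3 B6 CD8+ samples. In CD8 Dual mice it was 31.1, 28.5 and 27.6 CPM in CD8.1 cells and 102, 99.2 and 101 CPM in CD8.2 cells. No sample of one group overlapped a sample of another, and the order from high to low was B6 CD8+, CD8.2, CD8.1 and B6 CD4+. Since *Itgae* was singled out for a lineage gap that differs between the strains, its differences are given as a description without test results.

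The lineage gap of *Itgae* was 53.0-fold in B6 mice, as a log2 fold change of −5.73 (SE 0.163, n = 3 per group) for CD4+ minus CD8+ cells. In CD8 Dual mice it was 3.47-fold, with a log2 fold change of −1.79 (SE 0.133) for CD8.1 minus CD8.2 cells. The gap was narrower from both sides: CD8.1 cells were 6.26-fold above B6 CD4+ cells (log2 fold change 2.65, SE 0.157), and CD8.2 cells were 2.44-fold below B6 CD8+ cells (log2 fold change −1.29, SE 0.127). Between the strains the gap differed by 3.93 on the log2 scale (SE 0.202). In RNA from bulk samples, fewer cells of a type and less RNA per cell cannot be told apart.

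**Figure D1:**
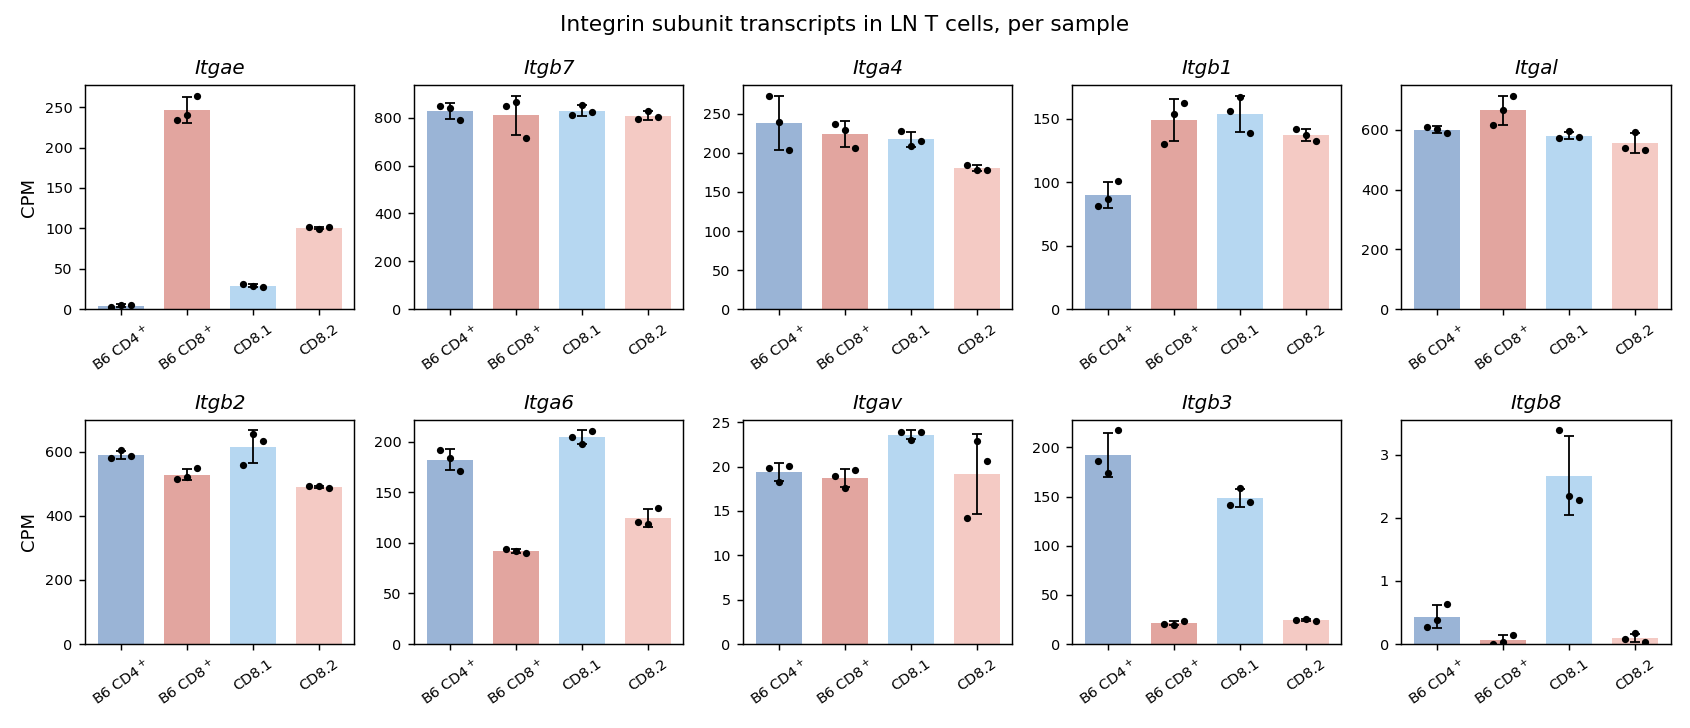
Level of each of the 10 integrin genes in CPM (linear axis from 0, a different scale in each panel) in the 2 B6 groups and the 2 CD8 Dual groups; bars are means, error bars are SD and points are the 3 samples of each group. *Itgae* lay between 234 and 264 CPM in B6 CD8+ cells and between 2.91 and 5.87 CPM in B6 CD4+ cells, whereas *Itgb7* lay between 716 and 865 CPM in all 12 samples.

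Marker lists of other cell states also differed between the groups. The 10 regulatory T cell markers, of which *Tnfrsf18* was the most abundant over all samples, summed to 265, 305 and 384 CPM in B6 CD4+ samples and 648, 720 and 676 CPM in CD8.1 samples, and 9 of 10 were called higher in CD8.1 cells than in B6 CD4+ cells by edgeR adjusted *P* under 0.05, against 6.94% of all tested genes. They summed to between 91.1 and 95.7 CPM in the 3 B6 CD8+ samples and 88.3, 88.6 and 85.8 CPM in CD8.2 samples. *Foxp3*, the defining factor of these cells, had a mean of 38.3 CPM in CD4+ and 0.333 in CD8+ cells of B6 mice, and 140 in CD8.1 and 1.24 in CD8.2 cells. The summed list was thus highest in CD8.1 cells, and it was lower in both cytotoxic-lineage groups, where *Itgae* was highest.

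The 8 markers of memory or innate memory T cells, with *Ly6c2* the most abundant over all samples, summed to 161, 170 and 189 CPM in B6 CD4+ samples and 1557, 1621 and 1917 CPM in B6 CD8+ samples. In CD8 Dual mice the sum was 398, 400 and 363 CPM in CD8.1 samples and 1045, 1067 and 1059 CPM in CD8.2 samples. These sums followed the same order of the 4 groups as *Itgae*, and by the same call 6 of the 8 genes were higher in CD8.1 cells than in B6 CD4+ cells (against 6.94% of all tested genes) and 4 were lower in CD8.2 cells than in B6 CD8+ cells (against 4.66%). By group means *Ly6c2*, *Il2rb*, *Cxcr3*, *Eomes* and *Ccl5* followed this order, whereas *Cd44*, *Tbx21* and *Il18r1* did not. *Cd44* was highest in CD8.1 cells (mean of 72.0 CPM, and 51.0 in B6 CD8+ cells). The 6 γδ T cell markers summed to 12.5, 11.7 and 11.4 CPM in CD4+ and 9.29, 11.5 and 10.3 in CD8+ samples of B6 mice, and 17.3, 19.4 and 17.2 in CD8.1 and 9.83, 9.33 and 8.52 in CD8.2 samples, with *Trdc* the most abundant. The γδ sum was highest in CD8.1 cells, B6 CD8+ samples overlapped both B6 CD4+ and CD8.2 samples, and no gene of these 3 lists was at 0 in all samples. The CD44- gate bears on memory cells and the TCRβ gate on γδ T cells, and the part of these cells in the *Itgae* levels was not tested.

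NK cells and dendritic cells can carry CD103, and a sort for TCRβ is meant to leave them out. The 6 NK cell markers, led over all samples by *Nkg7*, summed to 14.6, 14.6 and 17.4 CPM in CD4+ and 642, 701 and 744 in CD8+ samples of B6 mice, and 20.1, 19.3 and 13.7 in CD8.1 and 493, 559 and 540 in CD8.2 samples. The 12 dendritic or myeloid markers, led over all samples by *Lyz2*, summed to 6.00, 8.49 and 9.99 CPM in CD4+ and 9.21, 11.6 and 12.9 in CD8+ samples of B6 mice, and 21.3, 20.0 and 19.2 in CD8.1 and 14.2, 26.3 and 11.8 in CD8.2 samples. The NK sum in cytotoxic-lineage cells was mostly *Nkg7* (means of 525 CPM in B6 CD8+ and 408 in CD8.2 cells) and *Klrd1* (159 and 119 CPM), which CD8+ T cells also express. The NK receptor gene *Ncr1* had means of 0.216 CPM in CD4+ and 0.0563 in CD8+ cells of B6 mice, and 0.138 in CD8.1 and 0.0380 in CD8.2 cells, with at most 8 counts in any sample. The myeloid sum was above *Itgae* in each B6 CD4+ sample and below it in each sample of the other 3 groups, and the part of these cells in the result was not tested.

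The gene *Haspin* (listed as *Gsg2* in the count table) lies inside *Itgae* on the opposite strand, at 73135485 to 73138294 between exons 26 and 27, with no exon base shared. It had means of 4.56 CPM (SD 0.439) in CD4+ and 4.94 (SD 1.92) in CD8+ cells of B6 mice, and 5.47 (SD 0.882) in CD8.1 and 5.20 (SD 0.0982) in CD8.2 cells. Its level did not follow that of the gene around it, and it did not pass the test in any of the 5 comparisons.

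**Figure D2:**
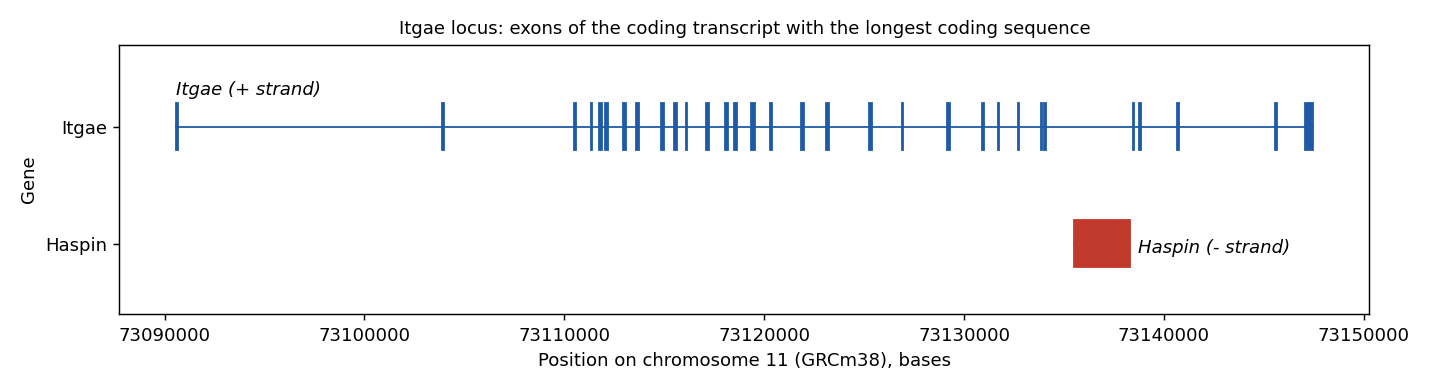
Map of the *Itgae* locus on chromosome 11 (GRCm38; horizontal axis in bases), with boxes for the exons of 1 coding transcript each of *Itgae* (plus strand) and *Haspin* (minus strand). *Haspin* sits between exons 26 and 27 of *Itgae* and overlaps none of its 31 exons.

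The 5 genes whose log2 CPM correlated best with *Itgae* over the 12 samples, out of 11270 with a mean of at least 1 CPM, were *Myo1f* (Pearson *r* 0.995), *Il2rb* (0.986), *Runx2* (0.985), *Hopx* (0.984) and the TCR segment *Trbv14* (0.984). The 12 samples share 4 group means, so these values describe mainly the order of the groups. *Myo1f*, a myosin of leukocytes, had means of 2.97 CPM in CD4+ and 85.8 in CD8+ cells of B6 mice, and 11.8 in CD8.1 and 41.1 in CD8.2 cells. *Il2rb*, a receptor chain for IL-2 and IL-15, had means of 95.2, 473, 242 and 316 CPM in the same order. With Spearman correlation in place of Pearson, 2 of the 5 were again among the best 5.

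The β7 subunit, encoded on chromosome 15 (102215995 to 102231944, minus strand), can pair with αE or α4. *Itgb7* was 849, 841 and 789 CPM in CD4+ and 849, 865 and 716 CPM in CD8+ samples of B6 mice, and 810, 853 and 825 CPM in CD8.1 and 794, 829 and 802 CPM in CD8.2 samples. The groups overlapped in every comparison, and the fitted log2 fold changes lay between −0.00 and 0.04 (SE 0.0751 each) with none past the test. Thus *Itgb7* transcripts were measured at a like level while those of its partner *Itgae* ranged from 2.91 to 264 CPM.

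*Itga4* (chromosome 2, 79255426 to 79333123, plus strand), the other α partner of β7, was 273, 239 and 203 CPM in CD4+ and 237, 229 and 206 in CD8+ samples of B6 mice, and 228, 208 and 216 in CD8.1 and 185, 179 and 178 in CD8.2 samples. The 3 CD8.2 samples were the lowest of all 12. By edgeR with Benjamini-Hochberg adjustment over all tested genes, *Itga4* was higher in CD8.1 than in CD8.2 cells (log2 fold change 0.27, SE 0.0936, adjusted *P* 0.0431), but the call was lost on leaving out any 1 of 10 of the 12 samples (all but B6 CD4+ replicates 1 and 3), with adjusted *P* from 0.0589 to 0.138. For CD8.2 minus B6 CD8+ cells the log2 fold change was −0.31 (SE 0.0936) with an adjusted *P* of 0.0527 in edgeR. It passed with DESeq2 (adjusted *P* 0.0209), limma-voom (0.0490) and a replicate block within each strain (0.0141). Such a block takes the spread between replicate numbers out of a comparison between strains, so that last *P* is not given as support. The call was not made with DESeq2 size factors (0.0522) or on leaving out any 1 of 8 of the 12 samples (up to 0.200). *Itga4* shares 1124 exon bases with *Cerkl* on the opposite strand, and *Cerkl* had means of 1.40 to 2.39 CPM.

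Per kilobase of exon, *Itgae* made up 5.79% (SD 2.49) of the sum of *Itgae* and *Itga4* in CD4+ and 77.0% (SD 2.39) in CD8+ cells of B6 mice, and 29.0% (SD 0.758) in CD8.1 and 63.0% (SD 0.435) in CD8.2 cells. Among the transcripts for α partners of β7, *Itga4* was therefore in the majority in both helper-lineage groups and *Itgae* in both cytotoxic-lineage groups. *Itgb7* exceeded the sum of *Itgae* and *Itga4* per kilobase in all groups, with mean ratios of 16.6 and 4.20 in CD4+ and CD8+ cells of B6 mice, and 13.7 and 8.36 in CD8.1 and CD8.2 cells. These are transcript levels and do not measure the protein dimers.

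The β1 subunit is shared by many α subunits, α4 and α6 included. *Itgb1* (chromosome 8, 128685654 to 128733200, plus strand) was 81.6, 86.9 and 101 CPM in B6 CD4+ and 130, 154 and 162 CPM in B6 CD8+ samples. In CD8 Dual mice it was 156, 167 and 139 CPM in CD8.1 and 142, 137 and 132 CPM in CD8.2 samples. The 3 B6 CD4+ samples were below the other 9, and the CD8.1 samples overlapped those of both cytotoxic-lineage groups.

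*Itgb1* was 1.65-fold lower in B6 CD4+ than in B6 CD8+ cells (log2 fold change −0.73, SE 0.100, edgeR adjusted *P* 5.78e-05) and 1.71-fold higher in CD8.1 cells than in B6 CD4+ cells (0.77, SE 0.101, adjusted *P* 0.000257). CD8.1 minus CD8.2 cells gave 0.16 (SE 0.0996, adjusted *P* 0.236), and the lineage difference itself differed between the strains by 0.89 on the log2 scale (SE 0.141, edgeR adjusted *P* 0.00240). The summed regulatory T cell markers, given above, were higher in CD8.1 cells than in B6 CD4+ samples as *Itgb1* was, but were low in both cytotoxic-lineage groups, where *Itgb1* was high. The summed memory markers, also given above, were low in B6 CD4+ samples and higher in the other 3 groups, as *Itgb1* was, and the part of either list was not tested.

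*Itga6* (chromosome 2, 71745616 to 71858416, plus strand) encodes a laminin receptor subunit that pairs with β1 in T cells. It was 192, 184 and 171 CPM in CD4+ and 94.2, 92.2 and 90.0 in CD8+ samples of B6 mice, and 205, 198 and 211 in CD8.1 and 121, 119 and 135 in CD8.2 samples. Every helper-lineage sample was above every cytotoxic-lineage sample, and CD8.2 samples were all above B6 CD8+ samples. The lineage difference was 1.98-fold in B6 mice (log2 fold change 0.98, SE 0.0724, edgeR adjusted *P* 5.41e-08) and 1.64-fold in CD8 Dual mice (0.71, SE 0.0719, adjusted *P* 2.60e-06). *Itga6* was 1.36-fold higher in CD8.2 cells than in B6 CD8+ cells (0.44, SE 0.0722, edgeR adjusted *P* 0.00184), and the test of the lineage difference between the strains gave −0.27 (SE 0.101, adjusted *P* 0.255).

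*Itgal* and *Itgb2*, the subunits of LFA-1, which binds ICAM-1, were abundant in all groups. *Itgal* (chromosome 7, 127296260 to 127335138) was 611, 602 and 589 CPM in CD4+ and 615, 666 and 714 in CD8+ samples of B6 mice, and 572, 596 and 575 in CD8.1 and 539, 594 and 533 in CD8.2 samples. *Itgb2* (chromosome 10, 77530252 to 77565708) was 580, 604 and 586 CPM in CD4+ and 516, 523 and 549 in CD8+ samples of B6 mice, and 559, 656 and 634 in CD8.1 and 492, 494 and 487 in CD8.2 samples. The groups lay close together for both genes, with each CD8.1 sample above each CD8.2 sample for *Itgb2*.

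*Itgb2* was 1.26-fold higher in CD8.1 than in CD8.2 cells (log2 fold change 0.33, SE 0.0690, edgeR adjusted *P* 0.00229), and in B6 mice the difference of 0.16 (SE 0.0689, adjusted *P* 0.121) passed on leaving out CD8.1 replicate 1 (adjusted *P* 0.0286). *Itgal* was lower in CD8.2 cells than in B6 CD8+ cells (log2 fold change −0.26, SE 0.0708, edgeR adjusted *P* 0.0363). That call was lost without B6 CD8+ replicate 2 or 3 or CD8.2 replicate 1 or 3 (adjusted *P* 0.0962 to 0.160) and with no filter on low counts (0.0524).

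The αv subunit is the α partner of β3 and β8. *Itgav* (chromosome 2, 83724397 to 83806916) was 19.9, 18.2 and 20.1 CPM in CD4+ and 18.9, 17.6 and 19.6 in CD8+ samples of B6 mice, and 23.9, 23.0 and 23.9 in CD8.1 and 14.2, 22.9 and 20.6 in CD8.2 samples. The 3 CD8.1 samples were the highest, and CD8.2 replicate 1 stood below all others. No comparison of *Itgav* passed the test, and CD8.1 minus CD8.2 cells gave a log2 fold change of 0.30 (SE 0.133, edgeR adjusted *P* 0.108), which was 0.11 without CD8.2 replicate 1 and 0.42 without CD8.2 replicate 2, where it passed (adjusted *P* 0.0371). *Gm13684*, which shares 634 exon bases with *Itgav* on the opposite strand, had 0 counts in every sample.

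*Itgb3* (chromosome 11, 104608000 to 104670476, plus strand) encodes the β3 subunit of the vitronectin receptor and of the platelet fibrinogen receptor. It was 186, 173 and 217 CPM in B6 CD4+ and 20.3, 19.4 and 23.8 CPM in B6 CD8+ samples. In CD8 Dual mice it was 142, 159 and 145 CPM in CD8.1 and 24.5, 25.3 and 23.6 CPM in CD8.2 samples. *Itgb3* was thus high in each of the 6 helper-lineage samples and low in each of the 6 cytotoxic-lineage samples, the reverse of *Itgae*.

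The lineage difference of *Itgb3* was 9.11-fold in B6 mice (log2 fold change 3.19, SE 0.103, edgeR adjusted *P* 3.81e-12) and 6.07-fold in CD8 Dual mice (2.60, SE 0.101, adjusted *P* 5.08e-11). CD8.1 cells were 1.30-fold below B6 CD4+ cells (−0.37, SE 0.0930, edgeR adjusted *P* 0.0172), which did not pass with only the 2 groups in the fit (0.0663). The lineage difference was smaller in CD8 Dual than in B6 mice by −0.58 on the log2 scale (SE 0.137, edgeR adjusted *P* 0.0413). This last call was lost on leaving out any 1 of 8 of the 12 samples (all but B6 CD4+ replicate 2, B6 CD8+ replicate 3 and CD8.1 replicates 1 and 2, with adjusted *P* 0.0568 to 0.112). It was also lost with limma-voom (0.0548) and with 1 replicate block common to both strains (0.0628). The call was kept with a replicate block within each strain (0.00778). No source states that same-numbered samples were paired, so that *P* is not given as support.

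Platelets carry β3, and their markers were near 0 in all groups. Of the 7 markers, 4 (*Gp9*, *Gp1ba*, *Gp1bb* and *Treml1*) had 0 counts in every sample. The list, led over all samples by *Itga2b*, summed to 0.136, 0 and 0.0425 CPM in CD4+ and 0.123, 0 and 0.144 in CD8+ samples of B6 mice, and 0.286, 0.221 and 0.0950 in CD8.1 and 0.128, 0 and 0.117 in CD8.2 samples. The *Itgb3* levels of 142 to 217 CPM in helper-lineage samples stood beside platelet marker sums of at most 0.286 CPM. The 8 stromal or endothelial markers, nearly all *Pecam1*, summed to 200, 207 and 167 CPM in CD4+ and 126, 130 and 105 in CD8+ samples of B6 mice. The sums were 138, 151 and 159 in CD8.1 and 113, 113 and 101 in CD8.2 samples. As for *Itgb3*, every helper-lineage sample was above every cytotoxic-lineage sample, an order set by *Pecam1*. The other tested genes of the list did not share 1 direction. *Cdh5* had higher means in B6 CD4+ and CD8.1 cells (0.742 and 0.473 CPM) than in B6 CD8+ and CD8.2 cells (0.162 and 0.0795). *Pdgfrb* had lower means in B6 CD4+ and CD8.1 cells (0.0152 and 0.0147 CPM) than in B6 CD8+ and CD8.2 cells (0.648 and 0.178). The part of platelets or of stromal or endothelial cells in the *Itgb3* levels was not tested.

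*Itgb8* (chromosome 12, 119158022 to 119238802, minus strand) was the least abundant gene. It had 6, 9 and 15 counts (0.273, 0.388 and 0.638 CPM) in B6 CD4+ and 71, 53 and 48 counts (3.39, 2.34 and 2.28 CPM) in CD8.1 samples. In B6 CD8+ samples it had 0, 1 and 3 counts and in CD8.2 samples 2, 3 and 1, at or under the floor of 3 counts. *Itgb8* was thus seen in every helper-lineage sample, at the highest level in CD8.1 cells.

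The ratio of pooled *Itgb8* counts was 6.10 (95% exact interval 4.12 to 9.31, counting error only) between CD8.1 (172 counts) and B6 CD4+ cells (30 counts). The ratio was 33.6 (15.1 to 92.9) for CD8.1 over CD8.2 cells (6 counts) and 7.94 (2.80 to 31.0) for B6 CD4+ over B6 CD8+ cells (4 counts). Of these 4 counts 3 were in replicate 3, and the fitted log2 fold change of the B6 lineages, 2.86 with all samples, was 4.16 without that replicate and 2.30 without B6 CD8+ replicate 1. *Itgb8* passed the filter on low counts only through CD8.1 cells, the group where it was high, so its *P* values are not given as support.

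Several lists of markers of other cells were higher in each CD8.1 sample than in each B6 CD4+ sample, as *Itgb8* was, namely the regulatory T cell, memory, γδ T cell and dendritic or myeloid lists given above and the B cell list. The 8 B cell markers, with *Cd79b* the most abundant over all samples and none at 0, summed to 76.2, 80.6 and 92.3 CPM in CD4+ and 78.7, 64.0 and 72.8 in CD8+ samples of B6 mice, and 159, 159 and 103 in CD8.1 and 119, 129 and 73.3 in CD8.2 samples. Of the 8, 2 were called higher in CD8.1 cells than in B6 CD4+ cells by edgeR adjusted *P*, against 6.94% of all tested genes, and the part of these lists in the *Itgb8* levels was not tested.

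**Figure D3:**
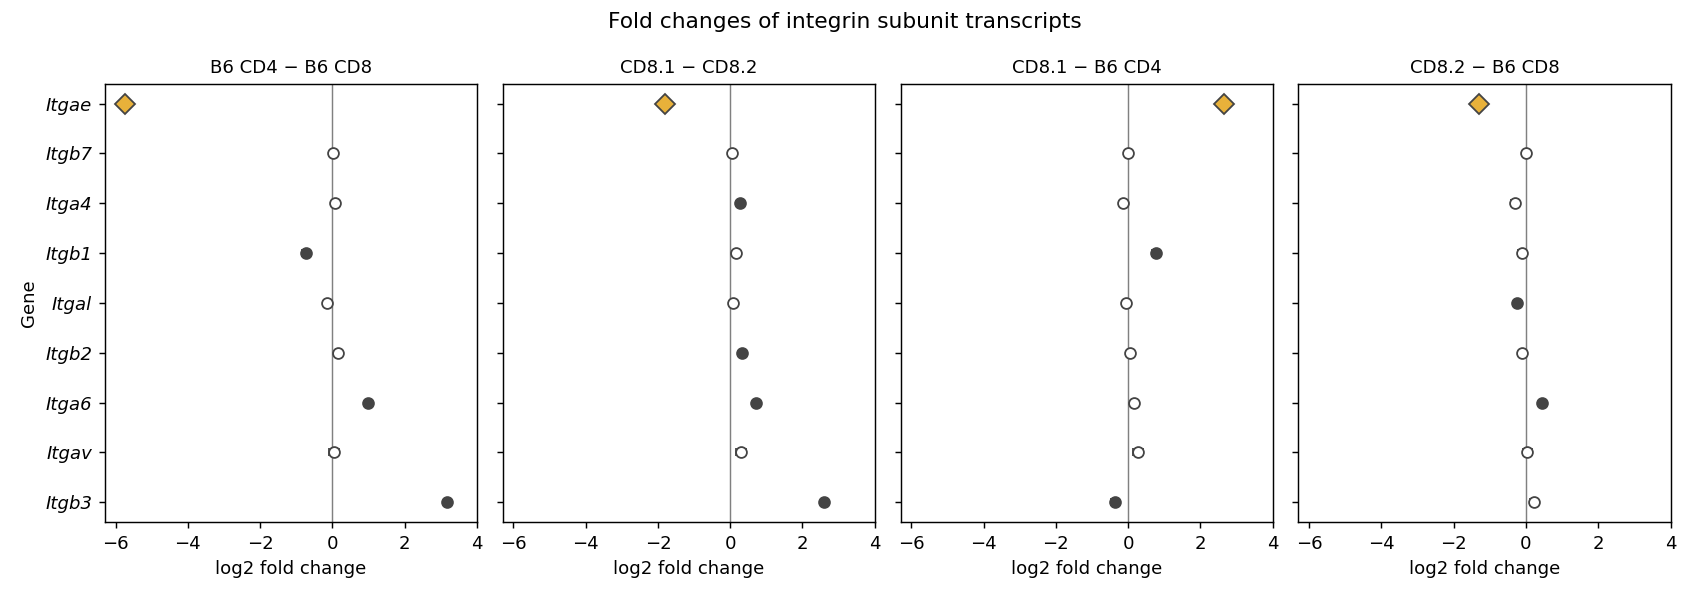
Log2 fold change (horizontal axis, with SE) of 9 integrin genes in the 4 comparisons between 2 groups. Filled circles passed an edgeR adjusted *P* of 0.05 and open circles did not. The diamond marks *Itgae*, whose test result is not given. *Itgb8*, with 0 to 3 counts in cytotoxic-lineage samples, is left out. *Itgae* and *Itgb3* lie on opposite sides of 0 in both lineage comparisons, at −5.73 and 3.19 in B6 mice.

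Counted over the 9 genes other than *Itgae*, with edgeR adjusted *P* under 0.05 as the call, 3 were higher and 1 lower in B6 CD4+ than in B6 CD8+ cells, where 11.4% and 11.7% of all 13118 tested genes were higher and lower. Between CD8.1 and CD8.2 cells 5 were higher and 0 lower, against 14.9% and 13.8% of all genes; DESeq2 and limma-voom also gave 0 lower, as did an unadjusted *P* under 0.05 in edgeR. Between CD8.1 and B6 CD4+ cells 2 were higher and 1 lower, against 6.94% and 5.82%, and between CD8.2 and B6 CD8+ cells 1 was higher and 1 lower, against 3.29% and 4.66%. For the strain effect on the lineage difference, 1 was higher and 1 lower, against 1.58% and 0.290%. All 10 genes passed the filter on low counts, *Itgb8* only through CD8.1 cells. *Itgb8* is 1 of the higher genes in each of the first 3 comparisons, so these counts are a description and not support, and no test compared them with the shares of all genes.

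The study defined differential expression as a fold over 5 with a *P* under 0.05, and *P* is taken here as unadjusted. By this rule 2 of the 9 (*Itgb3* and *Itgb8*) passed in each lineage comparison, against 3.29% of all genes in B6 and 3.32% in CD8 Dual mice. In CD8.1 minus B6 CD4+ cells 1 (*Itgb8*) passed, against 0.610%, so that *Itgb3* in the lineage comparisons was the only gene to pass apart from *Itgb8*. Since *Itgb8* passed the filter on low counts only through CD8.1 cells, the counts that hold it are a description and not support. None of the 9 passed in CD8.2 minus B6 CD8+ cells (0.579% of all genes) or in the difference of lineage differences (1.16%) in edgeR, DESeq2 or limma-voom; at an unadjusted *P* under 0.05 alone, edgeR counted 3 in each.

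Per kilobase of exon, the level of *Itgb7* was highest in every group (292 to 299 CPM per kilobase), followed by *Itgb2* (161 to 202) and *Itgal* (84.6 to 101). *Itgae* took the 4th place in B6 CD8+ cells (53.7 CPM per kilobase, SD 3.47), the 5th in CD8.2 cells (22.0, SD 0.302), the 8th in CD8.1 cells (6.35, SD 0.389) and the 9th in B6 CD4+ cells (1.01, SD 0.335), and *Itgb8* came last in every group. Neighbours in this order overlapped between samples only in B6 CD4+ cells, for *Itgb1* with *Itga6* and *Itga6* with *Itga4*, and in CD8.2 cells, for *Itga6* with *Itga4*. With the length of the longest transcript, *Itga6* moved up to rank 4 in B6 CD4+ and CD8.1 cells and to rank 5 in CD8.2 cells. *Itgae* then fell to rank 6 in CD8.2 cells and kept its rank in the other groups, and *Itgb1* fell to rank 7 in B6 CD4+ cells.

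Of the 17 other integrin subunits, 8 passed the filter on low counts, some only through the groups where they were high, so their calls are not counted here. *Itga7* had means of 5.99 CPM in CD4+ and 0.739 in CD8+ cells of B6 mice, and 8.08 in CD8.1 and 0.389 in CD8.2 cells. *Itga9* had means of 1.64, 0.114, 1.80 and 0.128 CPM in the same order. *Itgax*, the gene for CD11c, had means of 0.389, 4.56, 0.281 and 1.18 CPM in that order and was lower in CD8.2 cells than in B6 CD8+ cells (log2 fold change −1.97, SE 0.311, edgeR adjusted *P* 0.00129). *Itga2* had means of 1.01, 1.21, 2.66 and 0.618 CPM and was higher in CD8.1 cells than in B6 CD4+ cells (1.40, SE 0.292, edgeR adjusted *P* 0.00718), and its lineage difference changed between the strains (2.40, SE 0.436, adjusted *P* 0.00679). These 4 genes were thus minor beside *Itga4*, *Itgal* and *Itga6*.

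Genes that act on integrins from inside the cell, to activate, restrain or anchor them, changed by at most 0.84 on the log2 scale among those called. Of 34 such genes 30 were tested, and 3 were higher and 2 lower in the B6 lineage comparison (against 11.4% and 11.7% of all tested genes), led by *Cytip* (0.84, SE 0.0676, edgeR adjusted *P* 1.68e-07), an adaptor that binds the β2 regulator cytohesin-1, and *Rasgrp1* (0.48, adjusted *P* 2.11e-05). In CD8 Dual mice 2 were higher and 2 lower (against 14.9% and 13.8%), again led by *Cytip* (0.63, SE 0.0674, adjusted *P* 5.16e-06) and with *Ptk2b* lower (−0.45, adjusted *P* 0.00227). Between CD8.1 and B6 CD4+ cells 0 were higher and 5 lower (against 6.94% and 5.82%), led by *Tln1*, the gene for talin (−0.69, SE 0.145, edgeR adjusted *P* 0.00750), and *Rasgrp2* (−0.53, SE 0.0857, adjusted *P* 0.00145). Between CD8.2 and B6 CD8+ cells 0 were higher and 3 (*Rapgef1*, *Rasgrp2* and *Rasgrp1*) lower (against 3.29% and 4.66%). For the difference between the strains 0 were higher and 0 lower (against 1.58% and 0.290%).

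Of 24 ligands and genes that handle latent TGF-β, 14 were tested. Some were tested only through the groups where they were high, so that the counts are a description and not support. Among the 14 were 2 higher and 3 lower in the B6 lineage comparison (against 11.4% and 11.7% of all tested genes) and 4 higher and 3 lower in CD8 Dual mice (against 14.9% and 13.8%). *Lrrc32*, which holds latent TGF-β on regulatory T cells, had means of 8.27 CPM in CD4+ and 0.0996 in CD8+ cells of B6 mice, and 34.7 in CD8.1 and 0.217 in CD8.2 cells. It was higher in CD8.1 cells than in B6 CD4+ cells, by a log2 fold change of 2.07 (SE 0.173, edgeR adjusted *P* 4.17e-06), in the same samples as *Itgb8*. *Cdh1*, which encodes E-cadherin, the ligand of CD103, ranged from 0.893 to 3.59 CPM in CD4+ and from 6.35 to 7.67 in CD8+ samples of B6 mice, and from 0.239 to 0.332 in CD8.1 and from 5.41 to 6.30 in CD8.2 samples. It was thus highest in both cytotoxic-lineage groups, and B6 CD4+ replicate 1 held 79 of the 127 counts of that group. Between CD8.1 and B6 CD4+ cells 5 genes were higher and 1 lower (against 6.94% and 5.82%). Between CD8.2 and B6 CD8+ cells 0 were higher and 1 (*Tgfb3*) lower (against 3.29% and 4.66%). For the difference between the strains 0 were higher and 0 lower (against 1.58% and 0.290%).

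All 12 genes listed as known regulators of *Itgae* were tested, with 3 higher and 3 lower in the B6 lineage comparison (against 11.4% and 11.7% of all tested genes) and 5 higher and 3 lower in CD8 Dual mice (against 14.9% and 13.8%). *Zbtb7b*, the gene for ThPOK, was higher in helper-lineage cells of both strains (log2 fold change 7.42 in B6 and 6.36 in CD8 Dual mice), as was *Runx1* (1.47 and 1.13), whereas *Tbx21* (−4.46 and −3.32) and *Eomes* (−3.90 and −2.98) were lower. *Runx3* had means of 57.0 CPM in CD4+ and 102 in CD8+ cells of B6 mice, and 47.5 in CD8.1 and 74.2 in CD8.2 cells. In CD8.2 minus B6 CD8+ cells *Tbx21* (−1.18, SE 0.145, edgeR adjusted *P* 0.000236) and *Smad3* (−0.38, SE 0.0770, adjusted *P* 0.00743), a mediator of TGF-β signals, were lower, and *Zbtb7b* was higher (1.01, SE 0.270, adjusted *P* 0.0335). These calls, 1 higher and 2 lower, stand against 3.29% and 4.66% of all tested genes. In CD8.1 minus B6 CD4+ cells *Eomes* was higher (0.79, SE 0.228, edgeR adjusted *P* 0.0347) and 0 were lower, against 6.94% and 5.82% of all tested genes. For the difference between the strains 0 of the 12 passed, where 1.58% of all tested genes were higher and 0.290% lower.

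RefSeq promoter windows of GRCm38.p6, from 250 bases before to 50 bases after a transcript start in RefSeq, were on hand for 5 of the 10 genes (*Itgb7*, *Itga4*, *Itgb1*, *Itgav* and *Itgb8*) and not for *Itgae*, *Itgal*, *Itgb2*, *Itga6* and *Itgb3*. They were searched on both strands for TGTGGT (reverse complement ACCACA), the core bound by Runx factors, and CAGAC (reverse complement GTCTG), a core bound by Smad factors, which are factors known to act on *Itgae*. Of 32851 windows of 300 bases, 16.8% held the Runx core and 49.6% the Smad core. The windows of *Itgb1*, *Itgb8* and *Itga4* are shown 5′ to 3′ with these letters in capitals. *Itgb1* (fitted fold 1.71) and *Itgb8* (ratio of pooled counts 6.10) were higher in CD8.1 cells than in B6 CD4+ cells. *Itga4* was the only 1 of the 5 with a Runx core. The *Itgb1* window lies at chr8:128685404-128685703 (plus strand) and that of *Itga4* at chr2:79255176-79255475 (plus strand). The *Itgb8* window lies at chr12:119238227-119238526 (minus strand), inside the gene as GENCODE places it, which starts further upstream.
*Itgb1*: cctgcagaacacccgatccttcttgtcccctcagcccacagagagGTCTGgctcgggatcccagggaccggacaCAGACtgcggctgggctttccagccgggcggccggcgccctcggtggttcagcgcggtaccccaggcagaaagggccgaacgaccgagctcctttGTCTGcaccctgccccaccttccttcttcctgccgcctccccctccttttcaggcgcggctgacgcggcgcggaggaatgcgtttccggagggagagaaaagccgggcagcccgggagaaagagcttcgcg
*Itgb8*: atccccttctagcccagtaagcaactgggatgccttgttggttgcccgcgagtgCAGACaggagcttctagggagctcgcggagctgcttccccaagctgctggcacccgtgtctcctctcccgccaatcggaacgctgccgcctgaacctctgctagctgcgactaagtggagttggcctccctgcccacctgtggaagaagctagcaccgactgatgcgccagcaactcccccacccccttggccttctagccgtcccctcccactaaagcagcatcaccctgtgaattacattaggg
*Itga4*: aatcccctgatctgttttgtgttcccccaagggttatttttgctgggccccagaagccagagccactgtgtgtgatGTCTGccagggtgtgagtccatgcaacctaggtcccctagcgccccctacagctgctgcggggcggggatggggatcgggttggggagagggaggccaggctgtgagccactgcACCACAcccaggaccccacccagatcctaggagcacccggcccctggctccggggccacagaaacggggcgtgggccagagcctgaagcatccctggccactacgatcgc
The *Itgb1* window held 3 Smad cores and the *Itgb8* window 1, the *Itga4* window 1 of each kind, the *Itgb7* window 2 Smad cores, and the *Itgav* window none, with no overlap of the motifs. A match of letters is a description and not a site of binding.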

How the data were processed

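The deposited table held raw counts per gene for the 12 samples, made by the authors from reads aligned to mm10; STAR, RSEM and limma are named in the submitters' processing notes. Groups came from the sample labels. The study's reporting summary spreads the replicates of each experiment over more than a single independent experiment. It does not say that each replicate was an experiment of its own. Neither this nor the mention of pooled sorted cells says whether replicates came from separate animals, so *P* measures the spread between these samples. Counts were fitted with edgeR 4.0.16 (R 4.3.3; TMM, filterByExpr, glmQLFit and glmQLFTest over all 12 samples) and adjusted by Benjamini-Hochberg over 13118 of 49585 genes, after the test had been checked on simulated data. CPM use TMM-scaled totals. Lengths came from GENCODE M21, where 49326 identifiers matched when versions were ignored. No source states whether counting used the strand, so reads from overlapping antisense genes cannot be told apart. Alternatives used DESeq2 1.42.0, limma 3.58.1, other filters, scalings and sample sets. Same-numbered B6 CD4+ and CD8+ samples deviated together weakly (correlations 0.126, 0.138 and 0.257). No source states that they share a mouse, and the main fit did not pair them. Genes to name were the 10 integrin genes, the up to 4 called genes with the largest fold change per list and comparison, genes overlapping *Itgae* and the 5 genes most like *Itgae*. Not all of the called genes are given. Other genes are named where a sample, a marker list or an overlap is described. The genes and lists were chosen with earlier results of these data known.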

Additional observations from a re-analysis of the deposited data

Results flagged for a closer look

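Of the 10 integrin genes, 3 are listed here for a lineage difference that was not the same in both strains, 2 of them with test results. For *Itgae* the difference between the strains was 3.93 on the log2 scale (SE 0.202). This gene was chosen for the pattern, so its test result is not given. For *Itgb1* the difference was 0.89 (SE 0.141, edgeR adjusted *P* 0.00240), from a B6 lineage difference of −0.73 and a CD8 Dual difference of 0.16. For *Itgb3* it was −0.58 (SE 0.137, edgeR adjusted *P* 0.0413), from 3.19 in B6 and 2.60 in CD8 Dual mice, and it was lost under several settings given with the result.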

How the results depend on the processing

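With the fold-over-5 definition as the call, the count among the 9 genes other than *Itgae*, with *Itgb8* counted, was 2 in place of 4 in the B6 lineage comparison, 2 in place of 5 in CD8 Dual mice, 1 in place of 3 for CD8.1 minus B6 CD4+ cells, and 0 in place of 2 for both CD8.2 minus B6 CD8+ cells and the difference between the strains, since it asks for larger changes. The last count was 1 with limma-voom and 1 with 1 replicate block common to both strains, *Itgb3* being lost; the cause was not tested. Leaving out 1 sample at a time, the 5 counts ranged from 4 to 5, 4 to 5, 3 to 3, 1 to 3 and 1 to 2. All other planned settings gave counts within 1.5 times. No called fold change of the 9 genes changed sign under any setting run. The replicate blocks kept the count at 4 and 5 in the lineage comparisons and added *Itga4* in CD8.2 minus B6 CD8+ cells (3 in place of 2). DESeq2, limma-voom, a mean of at least 1 CPM and only the groups compared added it too. With no filter on low counts *Itga4* was gained there and *Itgal* lost. CD8.1 and CD8.2 samples of the same number correlated at −0.00388, 0.0905 and 0.119, and 2 of 3 correlated best with their own number. Such values do not settle whether the numbers pair samples in either strain. *Itgae* log2 differences kept their sign in all settings, from 3.70 to 4.13 for the difference between the strains. Depth limits *Itgb8*, with 0 to 3 counts in each cytotoxic-lineage sample.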
